A study of Homo sapiens with 4 samples.

Results

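Interleukin 1β (IL1β) was set against phosphate-buffered saline (PBS, the solvent control) in KYSE410, an established human cell line from an oesophageal squamous carcinoma, with 24 h of exposure for either. The comparison rests on the array labelled IL1β and the array labelled PBS, 2 of the 4 single-colour NimbleGen arrays of the series. The other arrays, labelled TNFα (tumour necrosis factor α) and LPS (lipopolysaccharide), served here to mark differences that may come from the PBS array. The question was which transcripts answer to inflammatory signals in these cells. By the labels, all groups were the same line in RPMI 1640 with serum, penicillin and streptomycin, and no dose of IL1β is stated there. The members are all 17185 genes that could be named, each with the RMA intensity (a summary of the probes of a set, on a linear scale) of its brightest probe set. With 1 array a condition no difference has an error or a test, and this number sets the limit on precision.

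IL1β is a cytokine that binds the receptor IL1R1 together with the accessory chain IL1RAP. The receptor pair recruits the adaptor MYD88 and kinases of the IRAK family, which act through TRAF6 and the kinase TAK1 (MAP3K7) on the IKK complex and on MAP kinases. IKK releases NF-κB dimers from IκB proteins, and NF-κB and AP-1 then drive genes for chemokines, cytokines, adhesion molecules and their own inhibitors. Squamous epithelia both make and sense cytokines of the IL1 family, and IL1R2 and the antagonist IL1RN restrain the signal.

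The labelled cell type was checked against fixed marker lists before the comparison. All 14 squamous epithelial markers were at or above the floor (260 on the linear scale, the median gene level), with a summed intensity of 153060 with PBS and 148250 with IL1β. The basal keratin KRT5 had 49361 and 48523, and TP63, a transcription factor of squamous cells, 986 and 933. Of the 14 only CDH1 was 2-fold apart. Markers of muscle were present too. ACTC1, cardiac actin, had 17961 with PBS and 28777 with IL1β, and MYH6, the cardiac myosin heavy chain α, 9470 and 17101. The 17 muscle markers summed to 45702 with PBS and 66558 with IL1β (TNFα 58870, LPS 17782), and 11 of them reached the floor on the PBS or the IL1β array. None of these 17 differed 2-fold between the IL1β and PBS arrays. With LPS, MYH6 had 81.3, near background, and ACTC1 still 12945. Bright cardiac transcripts go against the label of a squamous carcinoma line, most broadly on the PBS, TNFα and IL1β arrays. Where this RNA came from was not tested, so every value below is that of arrays labelled KYSE410. The 23 leukocyte markers summed to 4477 with PBS and 8514 with IL1β (TNFα 12913, LPS 4459). Of these, 10 were near background with PBS and 7 with IL1β, near background meaning under 2 times the random-sequence control set of the same array. The T and B cell markers CD3E, CD8A and MS4A1 were near background on both arrays. Fibroblast markers summed to 3415 with PBS and 2406 with IL1β, and endothelial markers to 2187 and 1954.

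**Figure D1:**
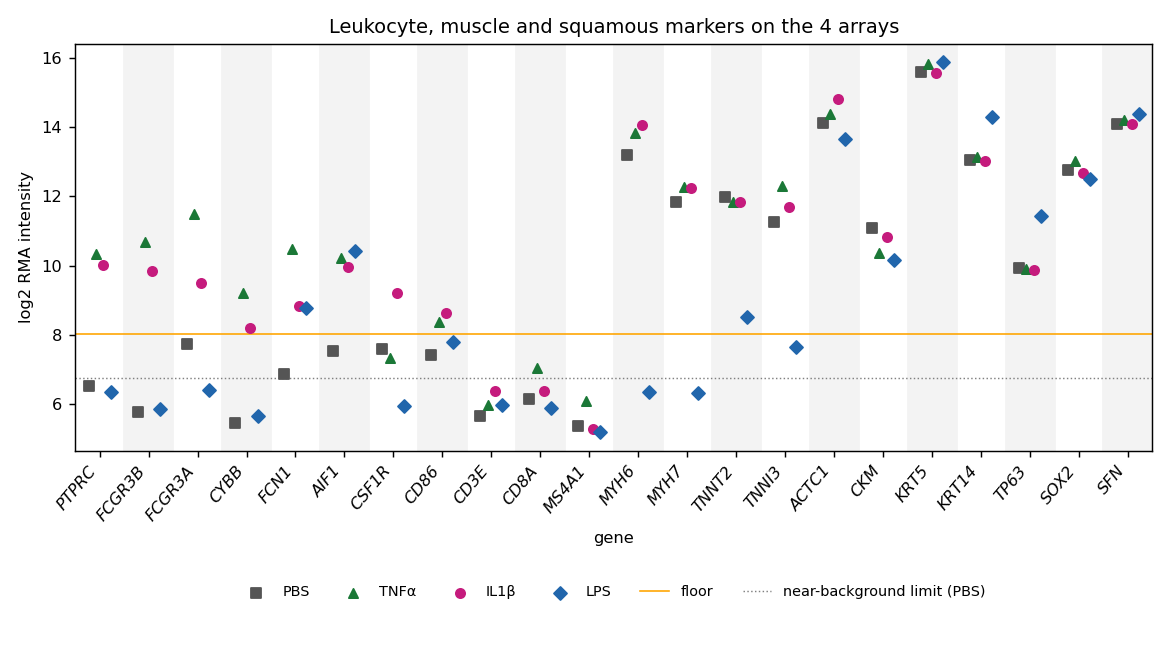
Log2 RMA intensity (vertical axis) of leukocyte, muscle and squamous marker genes (horizontal axis), with 1 symbol for each of the 4 arrays, the floor as a line and the near-background limit of the PBS array as a dotted line. PTPRC, FCGR3B and CYBB lie below the dotted line with PBS and LPS and above it with TNFα and IL1β, while MYH6 and MYH7 lie below it with LPS alone. Symbols are to be compared within a gene only.

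A gene is called higher or lower here if its values on the arrays were 2-fold apart or more and the brighter of them was at the floor or above it. Of 9427 genes at the floor on either array, 295 (3.13%) were higher with IL1β and 337 (3.57%) were lower, 6.70% in all. The call was often made between a value at the floor and a value below it. The PBS value was below the floor for 198 of the 295 higher genes, and the IL1β value was below it for 236 of the 337 lower genes. A gene below the floor with PBS could only be called higher, and a gene below it with IL1β only lower. The shares of 3.13% and 3.57% are the background for each list count below. Differences of large size were few. With both values above the near-background limit, 33 genes were at least 4-fold higher and 33 at least 4-fold lower, and at 8-fold the counts were 5 and 5. The middle of the distribution was narrow, with a median log2 difference of -0.05 and 95% of genes at the floor between -1.14 and 1.10.

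Differences measured against a single PBS array carry whatever set that array apart. A called gene was marked where the TNFα and the LPS array also differed from PBS at least 2-fold in the same direction. All of these comparisons share the PBS array, so the mark does not count as support. It fell on 85 of the 295 higher genes (28.8%) and on 108 of the 337 lower genes (32.0%). For these genes an effect common to all stimuli and a deviation of the PBS array cannot be told apart. A smaller number stood out on the IL1β array, which differed at least 2-fold from each of the other 3 arrays in the same direction for 36 higher and 22 lower genes.

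**Figure D2:**
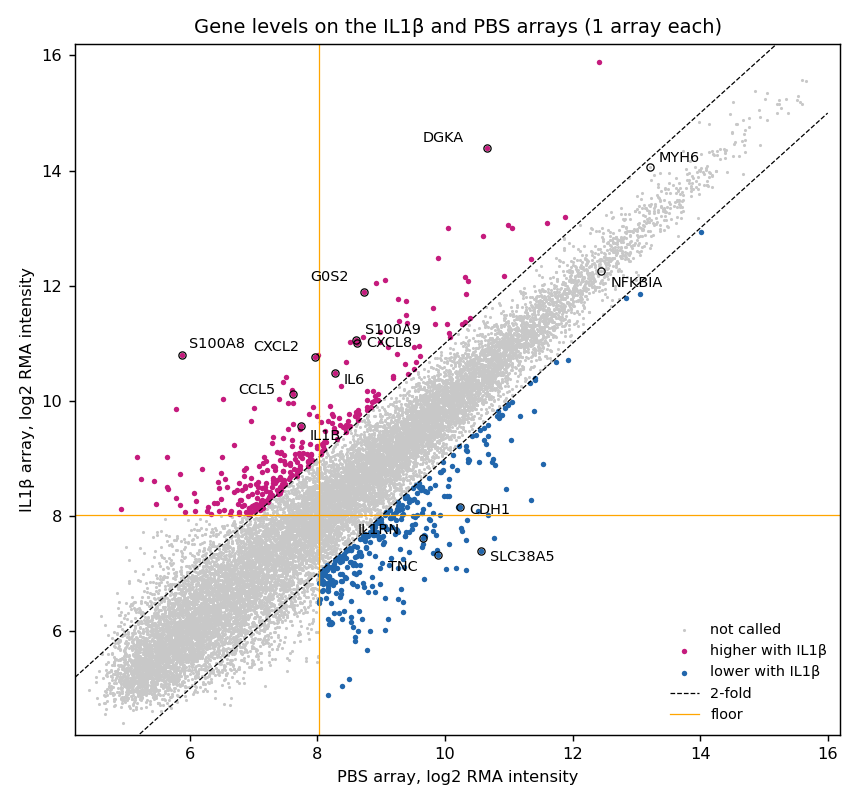
Log2 RMA intensity of 17185 genes on the PBS array (horizontal axis) and the IL1β array (vertical axis), 1 point per gene, with genes called higher in magenta and lower in blue. Dashed lines mark a 2-fold difference and orange lines the floor of 8.02. S100A8 lies far above the diagonal from a PBS value below the floor, while NFKBIA and MYH6 lie between the dashed lines.

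The genes of the IL1 system itself came first. IL1B, the gene of the added cytokine, was higher, and its antagonist IL1RN was lower. The IL1B intensity was 213 on the PBS array and 760 on the IL1β array, beside 691 with TNFα and 904 with LPS, 3.56-fold higher. IL1RN, which blocks the receptor, had 802 with PBS and 197 with IL1β, beside 206 with TNFα and 358 with LPS, 4.07-fold lower. For both genes the PBS array stood on one side and all stimulated arrays on the other, so both carry the mark. The receptor genes gave little signal on these arrays. IL1R1 had 64.7 and 55.6 and the decoy receptor IL1R2 49.1 and 41.5, near background on both sides, and the accessory chain IL1RAP had 131 and 189, below the floor.

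Among the signal proteins IRAK1, a kinase of the receptor complex, was 2.81-fold higher (PBS 3089, TNFα 8941, IL1β 8685, LPS 9025) and is marked. MYD88 differed by -0.36 on the log2 scale, IRAK2 by -0.73 and the kinase MAP3K7 by -0.19, none of them 2-fold. TRAF6 (166 and 71.4) and IRAK4 (211 and 91.3) lay below the floor on both arrays. The inhibitory kinase IRAK3 did as well, at 70.3 and 142. In all, 12 of 27 measured members of the IL1 list were at the floor, 2 higher, 1 lower and 9 neither, and the list's median log2 difference was -0.12 against -0.03 over all genes. All 3 called members are marked, and over all genes at the floor 3.13% were higher and 3.57% lower.

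Chemokines gave some of the larger differences. Of 20 measured chemokine genes 6 were at the floor, 4 of them higher and none lower, beside 3.13% and 3.57% of all genes at the floor. CXCL8 (interleukin 8), which attracts neutrophils, had 394 with PBS and 2051 with IL1β (TNFα 4547, LPS 3889), so IL1β gave 5.20 times the PBS value. CXCL2, which acts on the same receptor CXCR2, had 249, 2215, 1746 and 2311 on the PBS, TNFα, IL1β and LPS arrays, the order used for such sets of 4 values, 7.01-fold higher. The PBS value was the lowest of the 4 for both genes, and for CXCL8 the IL1β value was the lowest of the stimulated arrays. CCL5, a chemokine for T cells and monocytes, had 196, 1195, 1118 and 966, 5.71-fold higher. CCL3, a chemokine of macrophages, had 136, 862, 466 and 678, 3.43-fold higher. All 4 are marked. CXCL8 was the only called chemokine at the floor with PBS, and the other 3 reached it through the IL1β array, so their share of the 6 chemokines at the floor says nothing by itself. CXCR2, the receptor of CXCL8 and CXCL2, was itself 6.88-fold higher (258 with PBS, 1778 with IL1β) and is marked.

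Other chemokines were not called. CXCL1 had 525 with PBS and 449 with IL1β, and CXCL3 86.0 and 87.5, near background on both arrays. Their highest values were on the LPS array, at 1467 and 609. CCL20, which attracts dendritic and T cells, was near background with PBS and IL1β (86.4 and 59.6) and had 1724 with LPS. CCL2, a monocyte chemokine, was near background at 62.0 and 56.6. In all, 11 of 20 chemokines were near background on both arrays. The list's median log2 difference was -0.04, close to the -0.03 of all genes.

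The promoters of these mediators are printed because CXCL8, CXCL2 and IL6 are textbook targets of NF-κB, and because CXCL1 and CXCL3, with the same κB letters as CXCL2, were not called. Each run is 300 bases on the gene's strand from RefSeq on GRCh38.p14, from 250 bases before to 50 after the gene's start. Capitals mark matches to forms of the κB site, GGAANTTCC or GGG followed by any 2 bases and TTTCC, or to TGANTCA, the AP-1 site. Both strands were searched, and the κB forms can overlap, as they do in CXCL2. The CXCL8 run is chr4:73740319-73740618 on the plus strand, the CXCL2 run chr4:74099146-74099445 on the minus strand and the IL6 run chr7:22726950-22727249 on the plus strand.
CXCL8: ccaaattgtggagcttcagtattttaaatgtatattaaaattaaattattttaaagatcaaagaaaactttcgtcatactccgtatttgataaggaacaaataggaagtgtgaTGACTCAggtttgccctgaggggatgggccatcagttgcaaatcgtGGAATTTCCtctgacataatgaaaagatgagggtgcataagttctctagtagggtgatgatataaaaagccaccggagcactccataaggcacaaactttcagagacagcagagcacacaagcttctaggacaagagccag
CXCL2: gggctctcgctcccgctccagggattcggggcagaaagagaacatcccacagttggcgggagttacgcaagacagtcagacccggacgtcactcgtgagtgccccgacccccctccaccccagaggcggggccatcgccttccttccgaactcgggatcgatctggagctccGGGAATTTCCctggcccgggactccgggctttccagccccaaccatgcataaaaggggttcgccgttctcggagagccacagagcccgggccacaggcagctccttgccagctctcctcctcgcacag
IL6: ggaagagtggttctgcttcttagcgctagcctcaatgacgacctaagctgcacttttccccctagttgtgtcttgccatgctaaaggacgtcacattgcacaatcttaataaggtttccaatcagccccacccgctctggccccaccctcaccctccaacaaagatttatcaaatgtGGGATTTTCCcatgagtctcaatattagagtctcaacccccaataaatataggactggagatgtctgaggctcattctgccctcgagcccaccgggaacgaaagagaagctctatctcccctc

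The κB match of CXCL2, GGGAATTTCC, begins 78 bases before the gene's start. The same 10 letters begin 79 bases before the start of CXCL1 and of CXCL3, whose log2 differences were -0.23 and 0.02 against 2.81 for CXCL2. The match in CXCL8 begins 91 bases and its AP-1 match 137 bases before the start, and the match in IL6 73 bases before it. The promoter of ICAM1, which was 3-fold higher, holds GGAAATTCC from 186 bases before the start. NFKBIA (GGAAATTCC), BIRC3 (GGAAATCCCC) and TNFAIP3 (GGAAAGTCCC and GGAAATCCCC) hold matches too, and none of these 3 genes differed 2-fold. A match is thus present in genes of either kind. Of all 35116 promoters that RefSeq gave, 2.72% hold a match to either κB form and 7.71% hold TGANTCA. Of the higher genes 242 had a promoter in the table, and 18 of them (7.44%) hold a κB match, against 9 of 252 lower genes (3.57%) and 326 of 7694 genes at the floor (4.24%). TGANTCA was found in 6.61%, 8.33% and 6.77% of these sets. Shares of these gene sets count a gene with a match in any of its promoters, while the shares over all 35116 count single promoters, so the measures differ. The shares are descriptions of these letters in a short window.

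The NF-κB proteins themselves did not differ 2-fold. Of 15 members of the list of NF-κB subunits, IκB proteins and IKK kinases, 11 were at the floor and none was higher or lower, beside 6.70% of all genes. RELA, the main activating subunit, had 6896 with PBS and 5703 with IL1β. NFKB1 had 1414 and 1182, NFKB2 2037 and 1908, and RELB 396 and 453. NFKBIA, the inhibitor that NF-κB induces to end its own activity, had 5607 with PBS and 4880 with IL1β (TNFα 4463, LPS 14970). The IL1β value thus lay within the range of the PBS and TNFα values, and the LPS value stood above the others. NFKBIZ, an IκB protein that helps to induce IL6, was near background at 60.0 and 108.

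Of 20 feedback and survival genes of the pathway 4 were higher and none lower, with 17 at the floor. The shares over all genes at the floor were 3.13% and 3.57%. BCL2A1, a survival protein of the BCL2 family, had 1272 with PBS and 4566 with IL1β (TNFα 4141, LPS 59.3), 3.59-fold higher. It is not marked, since its LPS value was the lowest of the 4. TNIP1, a partner of A20 that damps NF-κB, was 3.30-fold higher, the adaptor TRAF2 2.90-fold and TNFAIP8 2.47-fold, and these 3 are marked. TNFAIP3 (A20), a deubiquitinase that restrains the pathway, had 703 with PBS and 763 with IL1β, and the apoptosis inhibitor BIRC3 394 and 362. Both had far higher values with LPS, at 5316 and 1337. The median log2 difference of the list was -0.05, or 0.00 after loess centring.

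**Figure D3:**
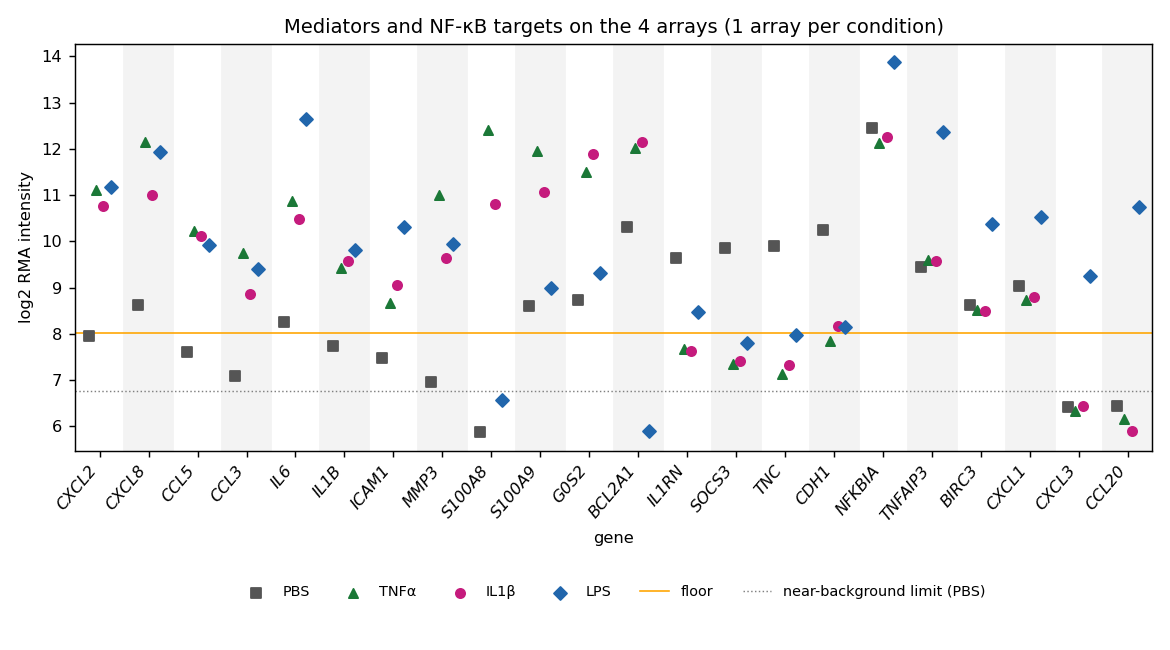
Log2 RMA intensity (vertical axis) of mediators, lower genes and NF-κB targets (horizontal axis), with 1 symbol for each of the 4 arrays, the floor as a line and the near-background limit of the PBS array as a dotted line. For CXCL2, CXCL8, CCL5, IL6 and IL1B the PBS symbol lies below all others, and for IL1RN, SOCS3, TNC and CDH1 it lies above all others. NFKBIA, TNFAIP3, BIRC3, CXCL1, CXCL3 and CCL20 stand out with LPS and not with IL1β.

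Of the listed cytokines and growth factors 2 were higher and 2 lower, beside 3.13% and 3.57% of all genes at the floor. IL6, which drives the acute phase response, had 308 with PBS and 1427 with IL1β (TNFα 1886, LPS 6426), 4.63-fold higher and marked. VEGFC, a growth factor of lymphatic vessels, had 179, 577, 477 and 638, 2.67-fold higher and marked. The IL6 family cytokine LIF was 2.21-fold lower (471 and 213), and the EGF receptor ligand EREG 2.03-fold lower (276 and 136). Neither carries the PBS mark, and the IL1β value was the lowest of the 4 arrays for both (LIF 404 with TNFα and 675 with LPS, EREG 310 and 502). The colony stimulating factors CSF2 (887 and 1022) and CSF3 (137 and 166), both known targets of IL1, did not differ 2-fold. CSF3 lay below the floor on both arrays and could not be called. Of 34 measured members 15 were at the floor. VEGFC was below the floor with PBS, so it was called through the IL1β array. With an offset of 50 added before the logarithm neither LIF nor EREG was called.

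Among genes that carry signals of the IL6 family through JAK kinases and STAT3, 3 of 18 were lower and 1 was higher. At the floor were 13 of the 18, and over all genes at the floor 3.57% were lower and 3.13% higher. SOCS3, a feedback inhibitor of IL6 signals, had 934 with PBS and 170 with IL1β (TNFα 163, LPS 225), 5.48-fold lower. PTPN11, the phosphatase SHP2, was 6.23-fold lower (1625 and 261) and PIAS3, an inhibitor of STAT3, 3.18-fold lower (739 and 232). These 3 are marked. The kinase JAK1 was 2.17-fold higher (750 and 1627) and is not marked, with 1162 on the TNFα array and 599 on the LPS array. STAT3 had 1484 and 1717 and the receptor chain IL6ST 570 and 426.

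Of 31 genes of the acute phase, complement and antimicrobial defence 19 were at the floor, with 5 higher and 1 lower. Of the 5 higher genes 2 were at the floor with PBS. The others reached it only through the IL1β array, so the share of higher genes among the 19 says nothing by itself. The list's median log2 difference was 0.28 against -0.03 over all genes. Over all genes at the floor 3.13% were higher and 3.57% lower. S100A8, a calcium-binding alarmin of myeloid cells and stressed epithelium, had 58.8 with PBS and 1782 with IL1β (TNFα 5440, LPS 95.5). The PBS value was near background, so the difference is at least 16.5-fold. Its partner S100A9, with which it forms calprotectin, had 389, 3983, 2144 and 508, 5.51-fold higher. Neither gene is marked, since the LPS values of both were within 2-fold of PBS. PTX3, a soluble pattern receptor, was 2.13-fold higher (443 and 942), the complement protease C1R 2.55-fold (159 and 405) and lactoferrin, LTF, 2.12-fold (139 and 295). SERPING1, the inhibitor of C1 proteases, was 3.38-fold lower (896 and 265). PTX3, C1R and SERPING1 are marked, and the LTF call ended with an offset of 50.

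Classical epithelial IL1 targets of the same list stayed under 2-fold. The acute phase protein SAA1 had 2119 with PBS and 3463 with IL1β (TNFα 1364, LPS 1523), a log2 difference of 0.71, and its second probe set gave 0.08. SAA2 had 4459 and 5161, the siderophore-binding LCN2 979 and 1224, and complement factor CFB 502 and 918. SAA1 and SAA2 are near-identical copies, and their probe sets may share signal.

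Some leukocyte markers were higher as well. Of 23 measured markers 12 were at the floor, 8 of them higher with IL1β and none lower. Over all genes at the floor 3.13% were higher and 3.57% lower. The median log2 difference of the 23 markers was 0.53. PTPRC (CD45), the phosphatase of all leukocytes, had 91.5 with PBS and 1046 with IL1β (TNFα 1295, LPS 81.5), at least 9.67-fold higher. FCGR3B, an Fc receptor of neutrophils, had 55.2, 1649, 925 and 57.9, at least 8.55-fold higher. The phagocyte oxidase subunit CYBB had 44.3, 588, 294 and 50.1, at least 2.72-fold higher. For these 3 genes, as for S100A8, the TNFα and IL1β arrays were high and the PBS and LPS arrays low. The monocyte lectin FCN1 was 3.87-fold higher. For FCGR3A, the Fc receptor of natural killer cells and monocytes, it was 3.44-fold. CSF1R, the receptor of a macrophage growth factor, was 3.08-fold higher and the costimulator CD86 2.32-fold. AIF1, a calcium-binding protein of macrophages, was 5.39-fold higher (185 and 998, beside 1193 with TNFα and 1386 with LPS) and its second probe set had a log2 difference of 0.80. AIF1 and FCN1 are marked, and unlike S100A8 and S100A9 both were also high on the LPS array (440 for FCN1). Every one of the 8 was below the floor with PBS, so each was called through the IL1β array, and 4 of the 12 markers at the floor were not called. Some markers went the other way without a call, among them CD14 (164 and 51.4) and CD68 (608 and 378). The line is labelled as carcinoma cells, and the part of leukocyte transcripts in the differences of S100A8, S100A9 and LTF was not tested. In bulk RNA more cells of a type and more RNA per cell cannot be told apart.

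Among 35 measured interferon-stimulated genes 25 were at the floor, 7 of them higher and 1 lower. The shares over all genes at the floor were 3.13% and 3.57%. The list's median log2 difference was 0.06. Of the 7 higher genes 4 were at the floor with PBS, and the others were called through the IL1β array. IRF2, a regulator of interferon genes, had 195 with PBS and 1164 with IL1β (TNFα 840, LPS 1116), 5.97-fold higher. IRF1, an activator that NF-κB also induces, had 147, 1023, 495 and 704, 3.37-fold higher. IFI16, a sensor of nuclear DNA, had 1550, 7380, 7473 and 5134, 4.82-fold higher. In these 3 genes all stimulated arrays lay above PBS. GBP2, a guanylate-binding GTPase, was at least 3.57-fold higher, and the antiviral proteins IFIT2, IFI6 and IFIT3 were 3.28-fold, 2.27-fold and 2.10-fold higher. All 7 are marked. The classical markers MX1 (236 and 233), ISG15 (631 and 657) and OAS1 (476 and 483) were nearly equal on both arrays. MX2, a relative of MX1, was 2.08-fold lower (309 and 149) and is not marked. With an offset of 50 the calls of MX2 and IFIT3 ended.

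In the class I antigen presentation list TAP1, the transporter that loads peptides, had 666 with PBS and 2877 with IL1β (TNFα 2596, LPS 5369), 4.32-fold higher and marked. The immunoproteasome subunit PSMB8 was called 5.06-fold higher on its brightest probe set (197 and 997), but its second set went the other way, with a log2 difference of -1.93. HLA-B (12840 and 7472), B2M (2820 and 3228) and PSMB9 (706 and 447) did not differ 2-fold. Of 20 members 17 were at the floor and 15 of these were neither higher nor lower. Among all genes at the floor 6.70% were called either way.

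Matrix proteases and their regulators gave 4 higher and 1 lower among 24 measured members, of which 11 were at the floor. Of the 4 higher genes 2 were at the floor with PBS. MMP3 and MMP14 reached it only through the IL1β array, so the share of higher genes among the 11 says nothing by itself. The shares over all genes at the floor were 3.13% and 3.57%. MMP3, stromelysin, had 124 on the PBS array, 2055 on the TNFα array, 802 on the IL1β array and 988 on the LPS array, 6.48-fold higher, and the membrane protease MMP14 140, 1432, 436 and 772, 3.12-fold higher. The TNFα value was the highest of the 4 for both proteases. The sheddase ADAM17 was 2.04-fold higher (1082 and 2209), while the inhibitor TIMP2 was 3.02-fold lower (1640 and 544). These 4 are marked. The ADAM17 call ended with an offset of 50. The collagenase MMP1 and the gelatinase MMP9 were near background on both arrays. The related ADAM15, which is not in the list, was 7.77-fold higher (1059 and 8230) and is marked.

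Of 20 adhesion and immune surface genes 9 were at the floor, with 1 higher and 1 lower. Beside this, 3.13% of all genes at the floor were higher and 3.57% lower. ICAM1, the ligand of leukocyte integrins, had 178 with PBS and 533 with IL1β (TNFα 405, LPS 1276), 3-fold higher. It was below the floor with PBS, so it was called through the IL1β array. VCAM1 and SELE, adhesion molecules of endothelium, were near background on both arrays. TNFRSF1B, the second TNF receptor, had 1226, 348, 213 and 294, 5.76-fold lower, while TNFRSF1A had 1242 and 1074 with PBS and IL1β. ALCAM, an adhesion molecule of the immunoglobulin family, was 7.29-fold higher (176 and 1281). ICAM1, TNFRSF1B and ALCAM are marked.

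Genes tied to epithelial-mesenchymal transition were called in both directions, 4 higher and 3 lower of 23 measured. At the floor were 16 of the 23, and over all genes at the floor 3.13% were higher and 3.57% lower. CDH1 (E-cadherin), the adherens junction protein of epithelium, had 1209 with PBS and 287 with IL1β (TNFα 232, LPS 284), 4.22-fold lower. CDH2 (N-cadherin) had 302, 1153, 852 and 1367, 2.82-fold higher. The transcription factors SNAI1 and TWIST1 were 4.63-fold and 3.55-fold higher, and ITGB1, the β1 chain of integrins, 5.66-fold (616 and 3486). The matrix protein tenascin C, TNC, was 5.95-fold lower. For these 6 genes every stimulated array lay at least 2-fold on the same side of PBS, so all are marked. S100A4 was 2.45-fold lower on its brightest set and lower on its second set as well (log2 differences of -1.29 and -1.68), and is not marked. Vimentin, VIM (6935 and 7326), P-cadherin, CDH3 (13041 and 14139), and EPCAM (4679 and 3971) did not differ 2-fold.

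Other junction and matrix receptor genes were mostly level. Of 17 integrin, laminin and hemidesmosome genes at the floor only ITGA6, the laminin-binding α6 chain, was called, 4.51-fold lower (800 and 177) and marked. Its partner ITGB4 had 4245 and 4360. Of 16 desmosome and tight junction genes at the floor only CLDN1 was called. This sealing claudin had 663 with PBS and 202 with IL1β (TNFα 359, LPS 990), 3.28-fold lower and not marked. The desmosomal proteins DSP (9191 and 10177) and DSG3 (4113 and 4398) were nearly equal. None of 29 squamous differentiation genes was called, 18 of them at the floor, and the keratins KRT13 (23485 and 37468) and KRT6A (37635 and 36438) stayed under 2-fold.

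AP-1 and immediate early genes had a median log2 difference of 0.22, with 2 of 26 members higher and none lower. Of the 26, 18 were at the floor, and 3.13% of all genes at the floor were higher and 3.57% lower. FOSL2 and JUNB, subunits of AP-1, were 2.09-fold (363 and 761) and 2.03-fold higher (318 and 645), and both calls ended with an offset of 50. FOS had 128 and 247 and the phosphatase DUSP1 190 and 374, each just under 2-fold. FOS lay below the floor on both arrays and could not be called. None of the 16 prostaglandin and nitric oxide genes was called, and 10 of them lay below the floor on both arrays, where no call was possible. The cyclooxygenase PTGS2 had 62.0 with PBS and 113 with IL1β (TNFα 113, LPS 434), and NOS2 was near background on both arrays. Superoxide dismutase SOD2, a mitochondrial enzyme that NF-κB induces, had 1640 with PBS and 2478 with IL1β, a log2 difference of 0.60, and its second probe set gave 1.30.

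Stress and metabolic lists held few calls. The oxygen-regulated factor HIF1A was 3.49-fold higher on its brightest set (900 and 3139) and marked, but its second set had a log2 difference of 0.07, and their mean gave 0.94. The kinase PDK1, which restrains pyruvate oxidation, was 2.47-fold lower, and the other 20 hypoxia and glycolysis genes were not called. In sterol synthesis only the desaturase SC5D was called, 3.68-fold lower (420 and 114) among 19 at the floor. No member of the cell cycle list (26 at the floor), the unfolded protein list (14) or the housekeeping list (20) was called. The medians of these lists were -0.15, -0.18 and -0.32, against -0.03 over all genes. Of 23 ribosomal protein genes only RPL18 was called, 2.12-fold lower and marked.

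**Figure D4:**
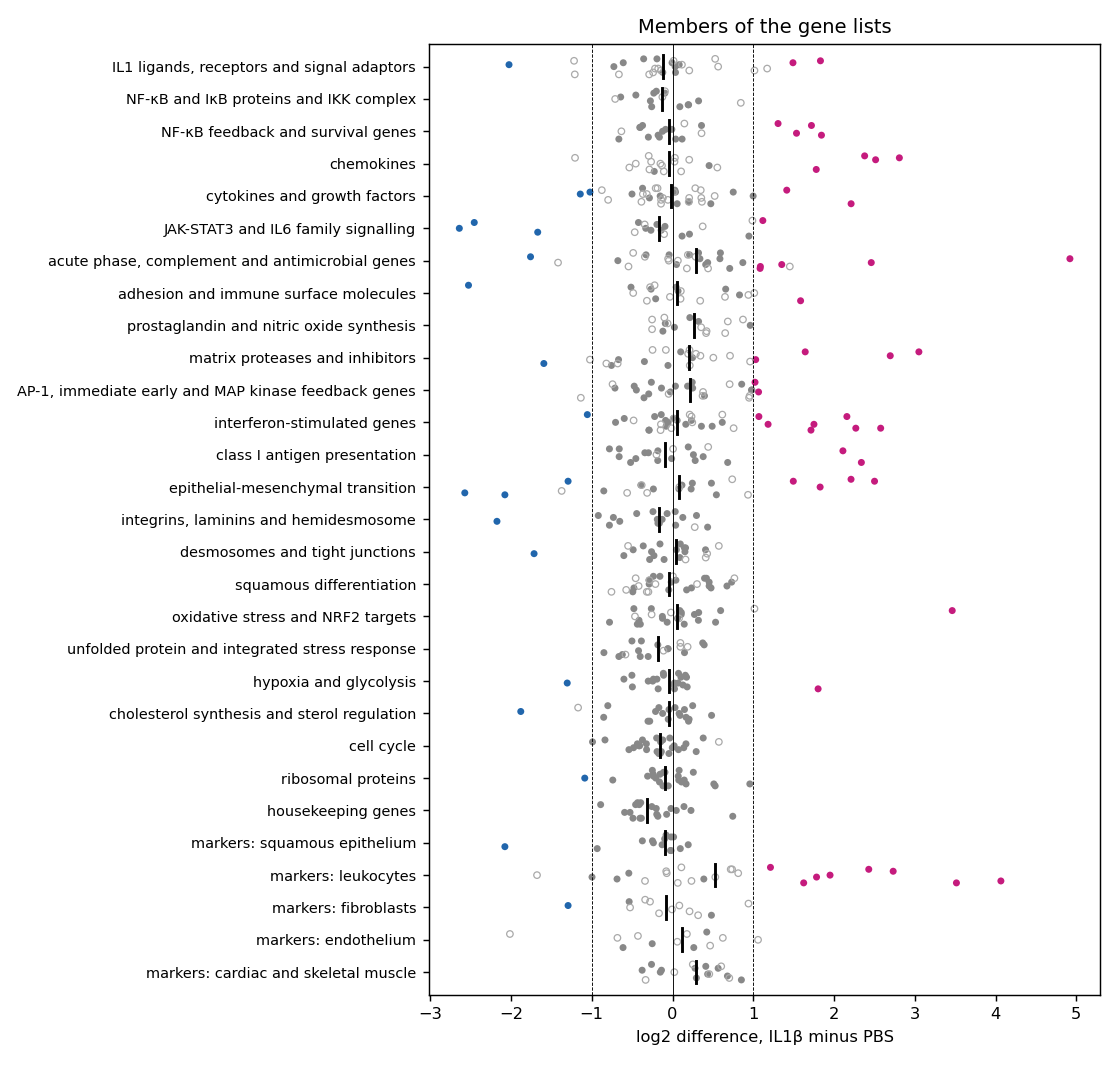
Log2 difference of IL1β minus PBS (horizontal axis) for each measured member of the 29 gene lists (vertical axis). Magenta and blue points were called higher and lower, filled grey points were at the floor without a call, open points were below the floor, and black bars are medians. Most medians lie near 0, that of the leukocyte markers lies at 0.53 and that of the housekeeping genes at -0.32.

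The largest differences measured on both arrays belonged to other families. DGKA, a kinase that turns diacylglycerol into phosphatidic acid, had 1619 with PBS and 21538 with IL1β (TNFα 34915, LPS 33922), 13.3-fold higher. IL10RB, a receptor chain shared by the IL10 family and type III interferons, had 485, 3627, 4220 and 3715, 8.70-fold higher. Both are marked, with the PBS array alone low. G0S2, an inhibitor of the lipase ATGL, had 425 with PBS and 3785 with IL1β (TNFα 2890, LPS 642), 8.91-fold higher, and is not marked. PGLYRP1, a peptidoglycan recognition protein of neutrophils, was 6.23-fold higher (168 and 1047) and marked. Of the 12 largest higher differences 10 are marked, the exceptions being G0S2 and the fibroblast growth factor FGF1.

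All 12 of the largest lower differences are marked. The protamine PRM2, a sperm chromatin protein, had 1289 with PBS and 133 with IL1β (TNFα 198, LPS 273), 9.69-fold lower. The amino acid transporter SLC38A5 had 1507, 92.8, 169 and 446, 8.93-fold lower. In both the PBS array alone was high. Others were PRKACG, a catalytic subunit of protein kinase A (8.44-fold lower), MED12L (8.34-fold), KAT14 (7.63-fold), the connexin GJB6 (6.75-fold), the growth factor PTN (6.19-fold) and BMP4, a ligand of the TGFβ family (5.83-fold), besides PTPN11 and TNC. Where the IL1β value was near background, MACC1 was at least 4.90-fold lower, ABHD12B at least 4.75-fold, ARSD at least 5.67-fold and EPS8L3 at least 5.48-fold, all marked. The mark of EPS8L3 holds on its brightest set only, since its second set had 325 with PBS and 587 with LPS. The second probe sets of ARSD (115 and 102) and ABHD12B (197 and 75.1) lay below the floor. With the mean of all sets the log2 difference of ARSD was -1.38 instead of -2.59, and that of ABHD12B -2.22 instead of -3.04. The pseudoreceptor BAMBI, an inhibitor of BMP and TGFβ signals, was at least 5.78-fold lower (649 and 90.5) without a mark, with 581 on the LPS array.

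A few genes set the IL1β array apart from all others. FGF1 had 129 with PBS and 943 with IL1β (TNFα 289, LPS 136), 7.32-fold higher than PBS. AKR1D1, a steroid reductase of bile acid synthesis, had 35.9, 79.3, 518 and 44.4, at least 4.79-fold higher. MAP3K7CL had 104, 244, 605 and 135, at least 5.59-fold higher, and KLRK1 (NKG2D), a receptor of natural killer cells, 49.6, 172, 519 and 39.1, at least 4.80-fold. XYLT1 (at least 3.67-fold), SLC34A3 (3.71-fold), LPA (2.71-fold), GNG11 (2.58-fold) and PTPRD (2.52-fold), all given as lower bounds, had the same pattern. On the lower side CNTN3, a neural adhesion protein, had 651 with PBS and 80.6 with IL1β (TNFα 483, LPS 480), at least 5.80-fold lower. DLX5 (at least 4.13-fold), ASGR1 (at least 2.51-fold), CPS1 (at least 2.32-fold), TMT1B (4.15-fold) and THBS3 (2.65-fold) were also lowest with IL1β. No canonical NF-κB target of the fixed panel was among these genes.

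Second probe sets offered a check within the same pair of arrays. Of the called genes 28 had a second set at the floor, and in 21 of these it had the same direction, but in only 6 was it also at least 2-fold. Among all 678 genes with a second set at the floor, called or not, that set was at least 2-fold apart either way in 40. How often the direction was shared over all 678 was not counted. Among 16 lower genes the second set was also lower in 14, by 2-fold or more in 5. Among 12 higher genes it was also higher in 7, by 2-fold or more in 1. The difference between these shares was not tested. The higher gene that repeated 2-fold was FCAR, an IgA receptor of myeloid cells, with log2 differences of 1.96 and 2.19. Among the lower genes EPS8L3 gave -2.70 and -2.16 and GRIK2 -1.29 and -2.36. FCAR and GRIK2 are named after their values were seen. Over all 678 genes with a second set at the floor the sets disagreed with an SD of 0.61, close to the SD of 0.58 of the IL1β minus PBS difference itself over genes at the floor. Of the genes measured, 15836 had a single probe set, among them CXCL8, CXCL2, IL6, IL1B and S100A8.

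**Figure D5:**
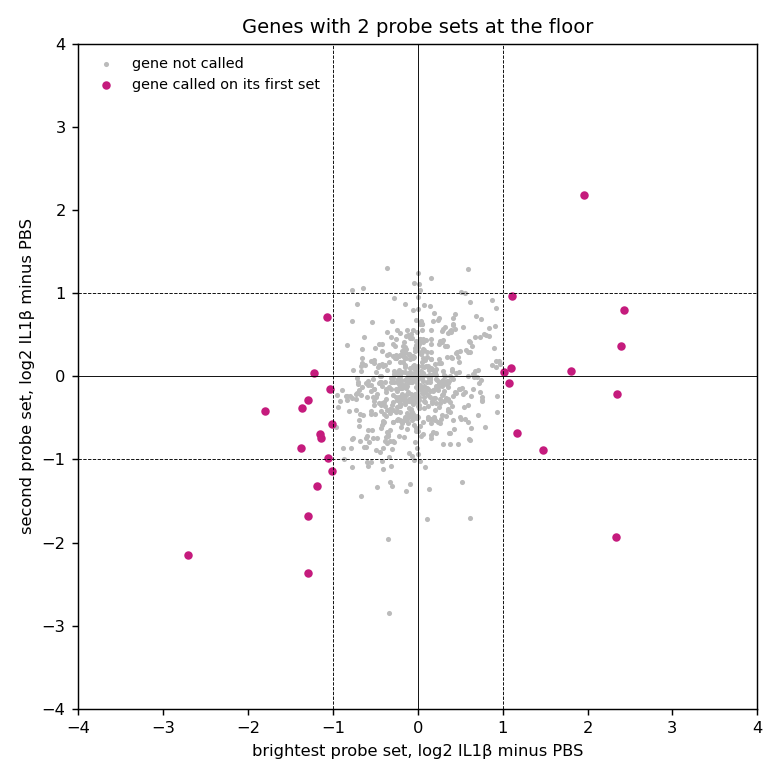
Log2 difference of IL1β minus PBS in the brightest (horizontal axis) and second (vertical axis) probe set of genes whose second set was at the floor, 1 point per gene, with genes called on the brightest set in magenta. Dashed lines mark 2-fold. Of 28 magenta points 6 lie beyond 2-fold on both axes in the same direction, and the point at the lower right is PSMB8.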

How the data were processed

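Per the labels' protocols, Cy3-labelled cDNA made from total RNA was hybridised, with 1 array for each condition. The authors deposited an RMA intensity per probe set on a linear scale, per the file headers. Which software made them is not stated there. The deposited series table held identical intensity values. RMA usually equalises distributions, so a difference is measured against most other genes. The median probe set had 260 on the PBS array, 258 on the IL1β array, 259 on the TNFα array and 245 on the LPS array. Of 45033 probe sets 18866 (41.9%) matched 1 symbol through unversioned RefSeq transcripts (GRCh38.p14, used for names). Each gene is read from the probe set that was brightest on average (log2) on the 4 arrays.

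No test was possible. The size rule was run on simulated data with known folds, in genes well above the floor and with even noise. That noise was smaller than the disagreement between probe sets (SD 0.61). The run therefore shows only that the rule works as written, not how many calls would repeat. Members, gene lists, motifs and named-gene rules were chosen with earlier results of these data known. Named were the 12 largest differences each way, 6 each way with the dimmer value near background, 6 each way particular to the IL1β array, up to 4 called genes per list and a fixed panel, leaving out genes whose probe sets at the floor disagree in sign and uncharacterised symbols. Other list members were named for context, and some genes these rules choose are not reported here. Calculations used pandas 2.3.3 and numpy 2.4.6 in Python 3.11.15, loess curves statsmodels 0.14.6 and plots matplotlib 3.10.9.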

Additional observations from a re-analysis of the deposited data

How the results depend on the processing

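The series value table holds identical intensities, so its equal counts were fixed in advance. The counts of 295 higher and 337 lower genes stayed within 1.5 times with loess centring and repeated quantile normalization. They also did so with the mean of all probe sets and an offset of 50. They moved to 646 and 743 with no floor, 101 and 104 with a floor at the 75th percentile, 909 and 1105 at 1.5-fold, 107 and 108 at 3-fold, and 809 and 821 over all probe sets, named or not. Left out after the data had been seen, genes that also differed on the TNFα and LPS arrays took the counts to 210 and 229, and marker genes of other cell types took them to 287 and 336. Of 118 named genes 90 were called. Of these, 90 remained called with loess centring, 89 with repeated quantile normalization, 89 with the mean of all probe sets and 86 with the offset, and none reversed. For the mean of all sets this was largely fixed in advance. Genes whose sets at the floor disagree in sign, such as PSMB8, were left out of the named genes. In the class I list the higher calls went from 2 to 1 with that mean. No paired analysis was possible because each condition has 1 array. Signal over background limits genes below the floor, 7758 of 17185.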

Other observations

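Lists chosen after the values were seen, given as values only, add 3 gene groups. Of 17 measured Wnt feedback and target genes 6 were lower with IL1β and none was higher, among 9 at the floor, with a median log2 difference of -0.93. Of all genes at the floor 3.57% were lower, and this list was chosen for its lower members, so its count supports nothing. AXIN2, a scaffold that restrains β-catenin, had 1467 with PBS and 271 with IL1β, 5.40-fold lower. NKD1, an inhibitor of Dishevelled, was 3.19-fold lower (1041 and 326), and the secreted Wnt deacylase NOTUM 2.29-fold lower (691 and 301). NKD2 was at least 2.58-fold lower, the transcription factor TCF7 at least 2.95-fold and BAMBI at least 5.78-fold. AXIN2, NKD1 and NKD2 were at least 2-fold below PBS on the TNFα and LPS arrays as well. DKK1 (1251 and 1099) and LEF1 (353 and 457) did not differ 2-fold.

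Of 38 HOX genes, which set position along the body axis, 5 were lower and none higher among 21 at the floor, beside the same 3.57% of all genes. HOXB8 was 4.39-fold lower (807 and 184), HOXC10 4.18-fold (895 and 214) and HOXB9 2.67-fold (1068 and 400), while HOXB7 (1531 and 1374) and HOXA10 (921 and 949) did not differ 2-fold. HOXB8 and HOXB6 were also at least 2-fold below PBS on the TNFα and LPS arrays, while HOXC10 had 1433 with LPS, above PBS. Like the HOX list, the list of 10 receptor chains for interferons and the IL10 family was chosen after the values were seen. Neither count supports anything, and over all genes at the floor 3.13% were higher. Of the 10 chains 5 were at the floor, and 3 of these were higher. These were IL10RB, IFNGR2 (4.36-fold, 618 and 2692) and IFNGR1 (2.78-fold, 213 and 591). All 3 were also at least 2-fold above PBS on the TNFα and LPS arrays. IFNAR2 (296 and 295) was level on its brightest probe set, and its second set had a log2 difference of -0.86.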
